A study of Mus musculus with 10 samples.

Results

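The genes described here carry out the absorption of dietary fat by enterocytes and its export in chylomicrons. Apoa1, Apoa4, Apob, Mttp, Fabp1, Fabp2, Cd36, Mogat2 and Dgat1 were chosen by their known roles, and every peak that the deposited table assigned to their Ensembl gene IDs was taken. This gave 9 of 44580 gene IDs and 81 of 246479 peaks. ATAC-seq, in which a transposase inserts sequencing adapters into DNA that is free of nucleosomes, was used to compare the accessibility of chromatin in purified intestinal epithelial cells (IECs) of 5 WT mice (Zip14 +/+, WT1 to WT5) and 5 KO mice (Zip14 -/-, KO6 to KO10). KO mice lacked the metal transporter Zip14 (Slc39a14) in all tissues through a targeted deletion present from the germ line, so a difference between genotypes cannot be assigned to the epithelium itself. Both genotypes came from crosses of heterozygous mice on a C57BL/6 background, and by the study's methods were female young adults unless noted there, fed a standard diet and not fasted before death. The IECs came from the proximal small intestine, which the labels call duodenum and the methods call duodenum and upper jejunum, and were sorted with antibodies to EpCAM, CD45, CD31 and TER-119. The values measure accessibility and not RNA, and in sorted cells taken in bulk a smaller share of cells with an open region cannot be told apart from less openness in each cell.

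After a meal, fat is digested in the lumen to fatty acids and monoacylglycerol, which enter the enterocyte at the brush border with the help of membrane proteins such as CD36. Inside the cell they are carried by the fatty acid binding proteins Fabp1 and Fabp2 to the endoplasmic reticulum, where monoacylglycerol acyltransferase (Mogat2) and diacylglycerol acyltransferase (Dgat1) rebuild triacylglycerol. The microsomal triglyceride transfer protein (Mttp) loads this lipid onto apolipoprotein B (Apob), and the particle leaves the cell as a chylomicron that also carries apolipoproteins A-IV (Apoa4) and A-I (Apoa1). These genes are characteristic of villus enterocytes of the upper small intestine, and nuclear factors of the HNF1, HNF4, CDX and GATA families are known regulators of genes of this kind.

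The peaks were listed by gene ID without coordinates, so no sequence of a peak could be read. To show the regulatory DNA at these genes, the 120 bases before the transcription start are given for 5 genes, from RefSeq promoters of GRCm38.p6, written 5′ to 3′ on the strand of the gene. The promoter set held 7 of the 9 genes and not Mogat2 and Dgat1. The windows of Apob and Cd36 are not shown because they reached into the span of the gene or of its longer transcripts. Capitals mark a match to TATAAA, the core promoter box, to AGATAA for GATA factors, to CAAAGT for the core of an HNF4 site, to AGGTCA for nuclear receptors, to GTTAAT for HNF1, to TTTATNG for CDX factors or to GGGCGG for Sp1 and its relatives, each searched on both strands.
Fabp1 (chr6:71199759-71199878, plus strand): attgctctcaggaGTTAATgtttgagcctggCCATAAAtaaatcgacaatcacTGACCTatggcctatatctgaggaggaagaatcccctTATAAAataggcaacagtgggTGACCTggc
Fabp2 (chr3:122894952-122895071, plus strand): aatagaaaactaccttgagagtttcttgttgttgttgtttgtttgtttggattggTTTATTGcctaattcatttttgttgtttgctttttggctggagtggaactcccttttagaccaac
Mttp (chr3:138143419-138143538, minus strand): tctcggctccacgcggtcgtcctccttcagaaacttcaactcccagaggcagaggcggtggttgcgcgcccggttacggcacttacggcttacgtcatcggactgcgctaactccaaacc
Apoa4 (chr9:46240724-46240843, plus strand): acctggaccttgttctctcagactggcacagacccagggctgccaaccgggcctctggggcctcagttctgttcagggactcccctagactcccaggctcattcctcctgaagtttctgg
Apoa1 (chr9:46228510-46228629, plus strand): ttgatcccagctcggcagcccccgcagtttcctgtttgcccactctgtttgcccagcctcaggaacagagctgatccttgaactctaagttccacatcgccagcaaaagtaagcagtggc

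The Fabp1 window held the largest number of these matches among the 7 promoters, with a TATA box 30 to 25 bases before the start, AGGTCA in reverse at 67 to 62 and at 9 to 4 bases before it, GTTAAT at 107 to 102 and a CDX match at 89 to 83. The Fabp2 window held a CDX match 65 to 59 bases before the start. No motif of the list matched in the printed windows of Mttp, Apoa4 and Apoa1. In the full 250 bases searched, CAAAGT matched in Apoa4, Fabp2 and Cd36, at 182 to 177, 134 to 129 and 122 to 117 bases before the start. Among 32851 RefSeq promoters, windows of the same length held TATAAA in 12.4%, AGATAA in 9.99%, CAAAGT in 12.6%, AGGTCA in 14%, GTTAAT in 6.43%, TTTATNG in 9.81% and GGGCGG in 32.7%. Overlapping matches occurred only at Apob, where TATAAA at 60 to 55 bases lay within a CDX match at 61 to 55. The matches describe letters and not bound sites, and whether a peak covers any of these windows is not known.

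Total counts over all peaks were between 5202949 and 15775481 in WT mice (median 8677347) and between 4731176 and 6094983 in KO mice (median 5659163), so low values were measured less precisely in KO mice. No source used here pairs Slc39a14 with an ID, so the deletion was not checked at a gene named beforehand. Of all peaks with at least 5 counts in every WT mouse, only a peak of ENSMUSG00000022094 had none in any KO mouse, with 17, 8, 21, 11 and 16 counts in WT1 to WT5; since it was picked by this pattern, it is given as a value and not as a test of the labels. The identity of the sorted cells could not be checked against cell type markers, since none of the 47 marker genes could be paired with an ID. The peaks of each of the 9 genes formed an unbroken run in the running order of the table, and are numbered here in that order. Values below are CPM, counts scaled to the TMM-normalised library size, and levels are not compared between genes because the lengths of the peaks were not given.

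Accessibility at the lipid absorption genes did not pass the test for a difference between WT and KO mice at any of the 9 genes. Summed over the peaks of each gene, 0 of 9 passed an adjusted p of 0.05 in edgeR's quasi-likelihood test, against 3.91% of the 36715 gene IDs tested, and 1 of 9, Dgat1, had an unadjusted p under 0.05, against 27.5% of all. DESeq2 also called 0 of the 9, against 5.96% of all gene IDs. By the exact permutation test of log2 CPM, 1 of the 9, again Dgat1, had a p under 0.05, against 22.2% of all, and with total counts in place of TMM factors 0 of the 9 did. The count of gene IDs called by edgeR moved with the mice included, and the cause was not tested. The lowest adjusted p over all gene IDs was 0.0311, near the threshold. The count was 1434 with all mice and 0 without WT3, WT5, KO6, KO9 or KO10 in turn (7147 to 8651 at an unadjusted p under 0.05). It was 342 without WT4, 867 without KO8, 2251 without KO7 and 3326 without WT2. With 1 surrogate variable it was 25. In each of these 0 of the 9 genes were called. The WT and KO values overlapped at all 9 genes, while they did not overlap at 6.02% of gene IDs. The log2 fold changes of KO against WT ran from -0.18 for Dgat1 to 0.16 for Apoa4, with a median of -0.046 beside -0.004 over all gene IDs tested. Of the 9 values, 8 were below 0, against 3 when loess offsets removed the trend of the fold change with abundance. That trend was broad: of the 9179 gene IDs of highest mean abundance, which include 7 of the 9 genes, 7625 were lower in KO mice with a median of -0.12, and the 9179 of lowest abundance had a median of 0.299.

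**Figure D1:**
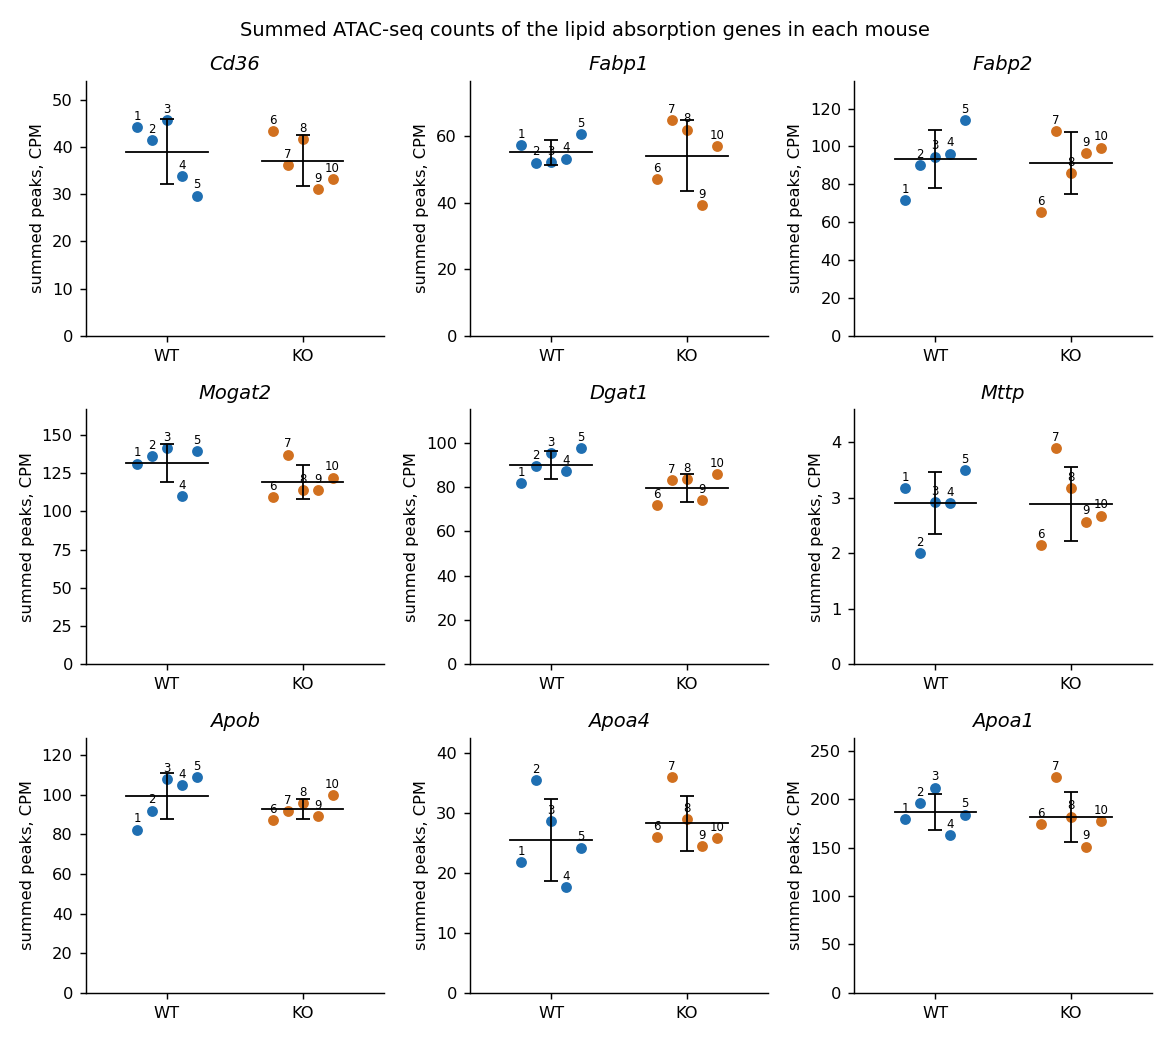
Each panel plots the counts of a gene, added over its peaks, in CPM (vertical axis, from 0) for the 5 WT and 5 KO mice; points are mice, labelled by number, the line is the mean and the bar the SD. The WT and KO points overlap in all 9 panels, and KO7 is the highest mouse for Apoa1, Apoa4, Mttp and Fabp1.

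Cd36 (ENSMUSG00000002944, RefSeq gene at chr5:17781690-17888959), the membrane protein that binds long-chain fatty acids at the brush border, was the gene of the uptake step. Its 20 peaks summed to 44.1, 41.5, 45.7, 33.8 and 29.7 CPM in WT1 to WT5 and to 43.4, 36.2, 41.7, 31 and 33.2 CPM in KO6 to KO10. Every KO value lay within the range of the WT values. The means were 39 ± 6.91 CPM in WT and 37.1 ± 5.34 CPM in KO mice (SD, n = 5 each), a log2 fold change of -0.06 (SE 0.12, 95% interval -0.32 to 0.20, adjusted p = 0.775). The interval allowed from 0.801 to 1.15 times the WT level.

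At the genes of the lipid binding proteins of the cytosol, neither mean differed beyond the spread between mice. Fabp1 (ENSMUSG00000054422, RefSeq gene at chr6:71199879-71205034), the liver-type protein that is also abundant in the upper intestine, had 57.3, 52.1, 52.3, 53.3 and 60.6 CPM in the WT mice and 47.2, 64.9, 62, 39.4 and 57.1 CPM in the KO mice over 7 peaks. The KO mice spread on both sides of the WT range, with KO7 and KO8 above it and KO6 and KO9 below it, and the coefficient of variation was 6.7% in WT and 19.6% in KO mice. The log2 fold change of Fabp1 was -0.03 (SE 0.11, 95% interval -0.26 to 0.20, adjusted p = 0.87). Fabp2 (ENSMUSG00000023057, RefSeq gene at chr3:122895072-122899506), the intestinal-type protein, had 71.8, 90.2, 94.7, 96.2 and 114 CPM in WT1 to WT5 and 65.5, 108, 86.1, 96.5 and 99.4 CPM in KO6 to KO10 over 6 peaks. Only KO6 fell outside the WT range of Fabp2, below it. Its means were 93.5 ± 15.2 and 91.2 ± 16.5 CPM (SD, n = 5 each), with a log2 fold change of -0.04 (SE 0.12, 95% interval -0.30 to 0.22, adjusted p = 0.841).

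The genes of the enzymes that rebuild triacylglycerol, Dgat1 and Mogat2, had lower means in KO mice, and neither passed the adjusted test. Dgat1 (ENSMUSG00000022555, RefSeq gene at chr15:76502012-76512021), which catalyses the last step, had 81.6, 89.4, 95.1, 87 and 97.4 CPM in the WT mice and 71.8, 83.1, 83.5, 74.2 and 85.8 CPM in the KO mice. KO6 and KO9 were below every WT mouse, and the other KO mice were within the WT range. The means were 90.1 ± 6.33 and 79.7 ± 6.25 CPM (SD, n = 5 each), a log2 fold change of -0.18 (SE 0.08, 95% interval -0.34 to -0.02) with an unadjusted p of 0.0321 and an adjusted p of 0.148 in edgeR; the exact two-sided permutation test gave p = 0.0476, and p = 0.0556 with total counts. This fold change was near the median of -0.12 of the 9179 gene IDs of highest abundance, and it was -0.07 with an unadjusted p of 0.271 under loess offsets. The unadjusted p was also above 0.05 without WT3, WT5, KO6 or KO9, and with its strongest peak alone.

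Mogat2 (ENSMUSG00000052396, RefSeq gene at chr7:99219084-99238611), which joins a fatty acid to monoacylglycerol in the intestine, had 131, 136, 141, 110 and 139 CPM in WT1 to WT5 and 109, 137, 114, 114 and 122 CPM in KO6 to KO10 over 5 peaks. KO6 lay just below the lowest WT mouse, WT4, and the other KO mice lay within the WT range. Its means were 131 ± 12.5 and 119 ± 10.7 CPM (SD, n = 5 each), with a log2 fold change of -0.14 (SE 0.09, 95% interval -0.32 to 0.04, adjusted p = 0.287). The related gene Mogat1 was the only one of 51 other genes listed for fat absorption that the sources used here paired with an ID. The pairing came from the study's list of transcripts called different in RNA between these genotypes. Mogat1 was therefore not an arbitrary member of the 51. It had 17.2 ± 4.75 CPM in WT and 15.1 ± 3.32 CPM in KO mice (SD, n = 5 each) and a log2 fold change of -0.16 (SE 0.18, 95% interval -0.55 to 0.22, adjusted p = 0.569).

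Mttp (ENSMUSG00000028158, RefSeq gene at chr3:138089855-138143418), the transfer protein required to load lipid onto Apob, was measured with little depth. Its 4 peaks together held 24, 10, 28, 24 and 59 counts in WT1 to WT5 and 13, 21, 19, 15 and 13 counts in KO6 to KO10, and none of the 4 passed the filter on low counts by itself. The sums corresponded to 2.9 ± 0.555 CPM in WT and 2.89 ± 0.666 CPM in KO mice (SD, n = 5 each). The log2 fold change was -0.05 (SE 0.23, adjusted p = 0.907), and its 95% interval of -0.53 to 0.43 was the widest of the 9 genes, which allows between 0.694 and 1.35 times the WT level, so smaller changes were not detectable at this depth. The peak next to the run of Mttp, which the table assigned to ENSMUSG00000004127, held between 139 and 607 counts per mouse. Peaks next to the runs of other genes were likewise assigned to other IDs, with 348 to 1396 counts beside Mogat2, 267 to 905 beside Dgat1, 190 to 857 beside Fabp2, 208 to 803 beside Apoa4 and 136 to 562 between Apoa1 and Apoa4. The sum of a gene therefore depends on how peaks were assigned to genes, for which the sources used here give no rule.

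Apob (ENSMUSG00000020609, RefSeq gene at chr12:7977629-8016839), the structural protein of the chylomicron, had 24 peaks, the most of the 9 genes. They summed to 82.4, 92, 108, 105 and 109 CPM in WT1 to WT5 and to 87.2, 91.8, 95.9, 89.1 and 99.8 CPM in KO6 to KO10. All KO mice lay within the WT range and were closer to each other, with a coefficient of variation of 5.51% against 11.7% in WT mice. The means were 99.3 ± 11.6 and 92.8 ± 5.11 CPM (SD, n = 5 each), a log2 fold change of -0.10 (SE 0.08, 95% interval -0.28 to 0.08, adjusted p = 0.435).

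Apoa1 (ENSMUSG00000032083) and Apoa4 (ENSMUSG00000032080) lie close together on chromosome 9 (RefSeq, GRCm38.p6, 46228630 to 46230469 and 46240844 to 46243458), with Apoc3 between them, and encode apolipoproteins of the chylomicron surface. Apoa1 had 179, 196, 212, 163 and 184 CPM in the WT mice and 174, 223, 182, 151 and 177 CPM in the KO mice over 12 peaks. KO7 was above and KO9 below all WT mice. The log2 fold change of Apoa1 was -0.04 (SE 0.10, 95% interval -0.25 to 0.17, adjusted p = 0.796). Apoa4 had a single peak, with 21.8, 35.5, 28.6, 17.6 and 24.2 CPM in WT1 to WT5 and 25.9, 36, 29, 24.5 and 25.8 CPM in KO6 to KO10. It was the only one of the 9 genes with a higher mean in KO mice, 28.2 ± 4.64 against 25.6 ± 6.84 CPM (SD, n = 5 each), and its log2 fold change of 0.16 (SE 0.15, 95% interval -0.16 to 0.48, adjusted p = 0.51) was within the spread between mice.

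Across the locus, the 14 peaks from the first of Apoa1 to that of Apoa4 summed to 246 ± 27.4 CPM in WT and 240 ± 33.9 CPM in KO mice (SD, n = 5 each; exact two-sided permutation test, p = 0.754). The peak between the runs was assigned to ENSMUSG00000032081. Its position places it at Apoc3, the only RefSeq gene between the other 2, though no source used here pairs that ID with a symbol. This peak had 33.8 ± 3.46 and 30.6 ± 4.47 CPM (SD, n = 5 each, exact two-sided permutation test, p = 0.222). Neither value separated the genotypes.

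**Figure D2:**
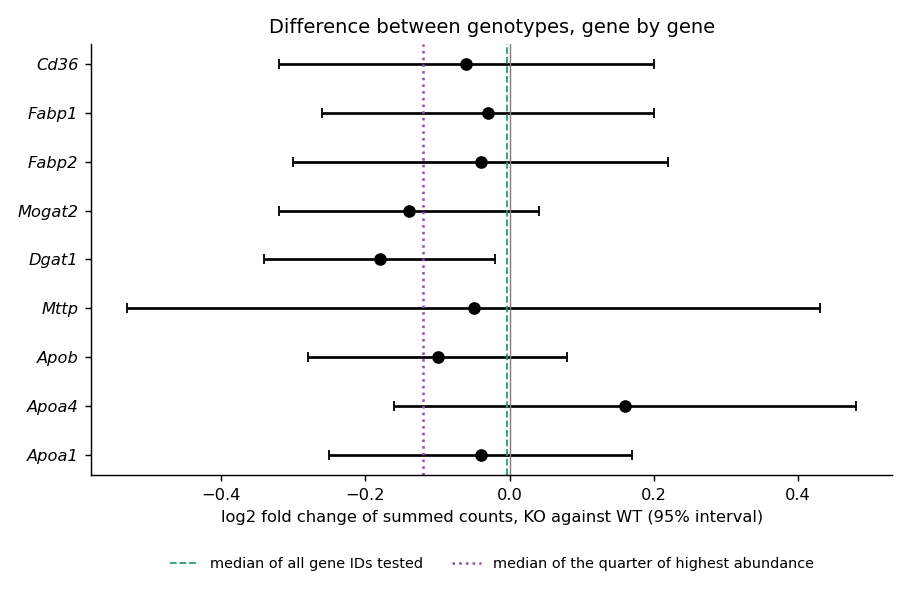
The horizontal axis is the log2 fold change of summed counts, KO against WT, with its 95% interval for each gene (vertical axis, from uptake at the top to chylomicron coat at the bottom); dashed and dotted lines are the medians of all gene IDs tested and of the 9179 of highest abundance. The interval of Dgat1 alone excludes 0, and that of Mttp is the widest.

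The same mice stood at the ends of the range for several genes. KO7 was the highest mouse at 4 genes and WT5 at 3, and KO6 was the lowest at 3 and KO9 at 2. Relative to the mean of each gene over all mice, the median deviation over the 9 genes was 0.25 on the log2 scale in KO7 and -0.20 in KO6, both KO mice. Without KO7 the median log2 fold change of the 9 genes was -0.116, and without KO9 it was 0.003.

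Of the 81 peaks, 47 passed the filter on low counts, and 0 of these passed an adjusted p of 0.05 in edgeR, as did 0% of the 81022 peaks tested. Over all peaks 552 were called by DESeq2, 833 with at least 10 counts in every mouse, 394 without a filter, 1895 without WT2, 78 without WT1 and 61 without KO7, and in each of these 0 were peaks of the 9 genes. At an unadjusted p under 0.05 there were 4 of 47 peaks, against 16% of all peaks, of which 8399 were higher and 4582 lower in KO mice. With total counts in place of TMM factors that split was 5830 higher and 9535 lower. Among the 47 peaks 20 were higher and 27 lower, with a median log2 fold change of -0.032 beside -0.003 over all tested peaks. The 34 untested peaks held at most 34 counts in any mouse; 14 of them belonged to Cd36, 11 to Apob, 4 to Mttp, 3 to Apoa1 and 2 to Fabp1.

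Apoa1 peak 7 had the lowest adjusted p of the 47, 0.129. Its counts were low, from 9 to 28 per mouse, and its CPM were 2.07, 1.8, 1.78, 1.67 and 1.57 in WT1 to WT5 and 2.64, 3.16, 3.01, 2.32 and 3.64 in KO6 to KO10. All 5 KO mice lay above all WT mice, a direction and separation found at 1.84% of the tested peaks, with 3.05% not overlapping in either direction. The log2 fold change was 0.74 (SE 0.23, 95% interval 0.25 to 1.22, unadjusted p = 0.00475 in edgeR). This peak was a small part of the gene: the strongest, Apoa1 peak 12, had 50.1 ± 6.64 CPM in WT and 50.3 ± 13 CPM in KO mice (SD, n = 5 each), and Apoa1 peak 6 had 40.5 ± 6.5 and 45.1 ± 6.46 CPM.

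The other peaks with an unadjusted p under 0.05 were in Cd36 and Apob. Cd36 peak 17 had 4 of the 5 KO mice above all WT mice and KO8 below them, with a log2 fold change of 0.90 (SE 0.35, adjusted p = 0.21) at 4 to 17 counts per mouse. Apob peak 9 had 4 of the 5 KO mice below all WT mice, with a log2 fold change of -0.60 (SE 0.25, adjusted p = 0.247) at 9 to 64 counts per mouse. The strongest peak of Apob, peak 5, had 33.4 ± 2.45 CPM in WT and 31.4 ± 1.98 CPM in KO mice (SD, n = 5 each), a log2 fold change of -0.09 (SE 0.09, adjusted p = 0.651). The tested peaks of Fabp1, Fabp2, Mogat2, Dgat1 and Apoa4 had log2 fold changes from -0.27 to 0.34 and no unadjusted p under 0.05.

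Both Dgat1 peaks were slightly lower in KO mice, peak 1 by a log2 fold change of -0.06 (SE 0.11) and peak 2 by -0.11 (SE 0.08), neither past the test. These are smaller than the -0.18 of their sum because the tables of peaks and of genes were scaled separately: the mean log2 TMM factor of KO minus WT mice was -0.085 over peaks and -0.002 over genes. A fold change per peak and that of the sum are thus on different scales.

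**Figure D3:**
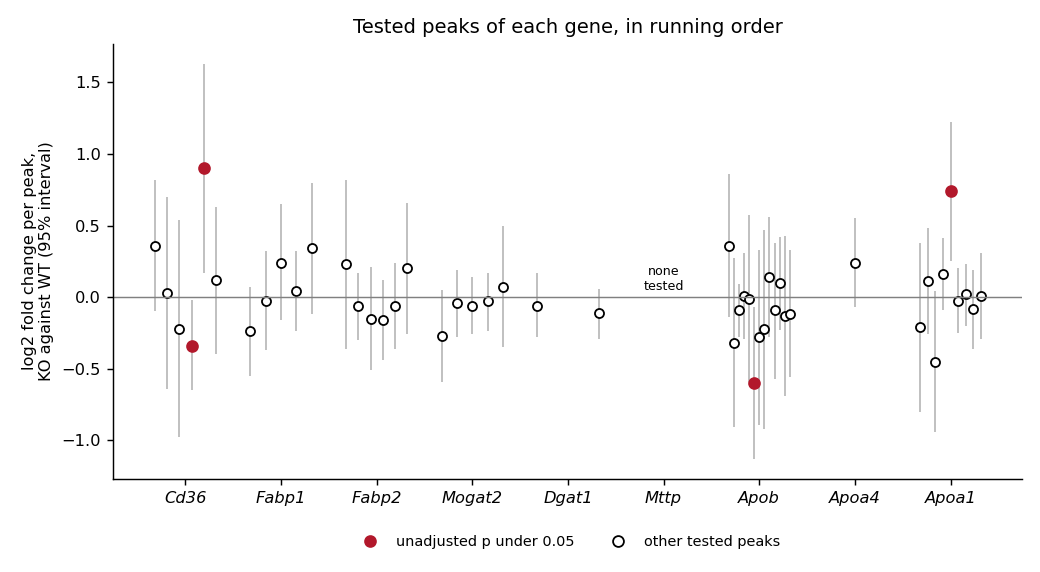
Points are the 47 tested peaks, grouped by gene along the horizontal axis and placed in running order within it; the vertical axis is their log2 fold change (KO to WT) with its 95% interval. Filled points mark the 4 peaks with an unadjusted p under 0.05, in Cd36, Apob and Apoa1, and no peak passes the adjusted threshold.

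Whether the peaks of a gene differed among themselves in their change with genotype was tested by edgeR's diffSpliceDGE over 17760 gene IDs with at least 2 tested peaks, of which 1.19% were called. None of the 7 genes that could be tested was called. Cd36 had the lowest p, 0.0527 unadjusted and 0.347 adjusted over its 6 tested peaks, and the other 6 genes had adjusted p from 0.523 to 0.892.

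In Cd36 the strongest peak, peak 13, had 13, 13, 14.4, 11.3 and 10 CPM in WT1 to WT5 and 10.6, 10.8, 11.7, 7.14 and 8.13 CPM in KO6 to KO10, which overlap, with a log2 fold change of -0.34 (SE 0.15, adjusted p = 0.288). As a share of all Cd36 counts, which does not depend on scaling, this peak held 30, 31.4, 33, 33.9 and 35.7% in the WT mice and 22.9, 29.7, 28, 22.1 and 23.6% in the KO mice. These shares, chosen after their values were seen, did not overlap, with means of 32.8 ± 2.21% and 25.3 ± 3.39% (SD, n = 5 each; exact two-sided permutation test, p = 0.00794, the smallest that 252 labelings allow). The p was not corrected for that choice. As a share of the 6 tested Cd36 peaks alone, peak 13 held 44.9 ± 3.75% in WT and 35.9 ± 4.53% in KO mice (SD, n = 5 each; exact two-sided permutation test, p = 0.0238). There the groups overlapped, with WT1 at 39.4% below KO7 at 40% and KO8 at 40.9%. Among 10151 gene IDs with at least 2 peaks and 100 counts in each mouse, the share of the strongest peak did not overlap between genotypes in 2.69%, and was lower in KO mice in 2.34%, that is in 238 of 273 such IDs. Of the 7 lipid absorption genes in that set, the shares of the other 6 overlapped, such as those of Dgat1 (71.8 ± 2.13% in WT and 70.8 ± 1.45% in KO mice) and Mogat2 (39 ± 1.43% and 39.7 ± 1.08%).

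**Figure D4:**
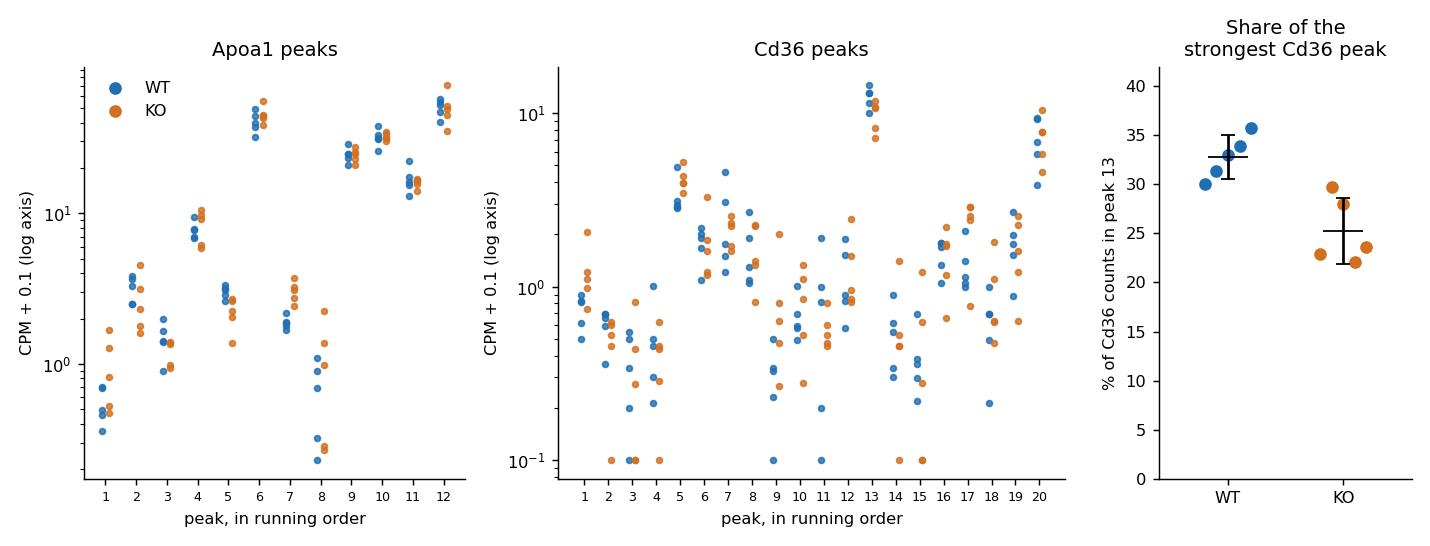
The left and middle panels plot CPM + 0.1 on a log axis for each mouse at the 12 Apoa1 and 20 Cd36 peaks in running order; the right panel plots the share of Cd36 counts in peak 13, with mean and SD. WT and KO points overlap at all strong Apoa1 peaks and separate at the weak peak 7, and the KO shares of Cd36 peak 13, from 22.1 to 29.7%, lie below the WT shares, from 30 to 35.7%.

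The signs of 6 of the 9 fold changes moved with the processing, and the cause was not tested. Loess offsets turned Apoa1, Apob, Cd36, Fabp1 and Fabp2 from below to above 0, to values between 0.01 and 0.08, and moved Mttp to -0.35. With the strongest peak of each gene in place of the sum, in a table scaled by its own TMM factors, Cd36 had a log2 fold change of -0.33 and Fabp2 of 0.20. Dgat1, Mogat2 and Apoa4 kept their signs in all 19 alternatives, including each that left out a mouse, but not their sizes. Apoa4 ran from 0.05 (without WT4, without KO7 or with 1 surrogate variable) to 0.28 (without WT2), Mogat2 from -0.20 (without WT4 or KO7) to -0.03 (loess offsets or the strongest peak), and Dgat1 from -0.22 (without WT1) to -0.07 (loess offsets). None of the 9 genes passed an adjusted p of 0.05 in any that gave it a value; Mttp had none with the strongest peak.

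**Figure D5:**
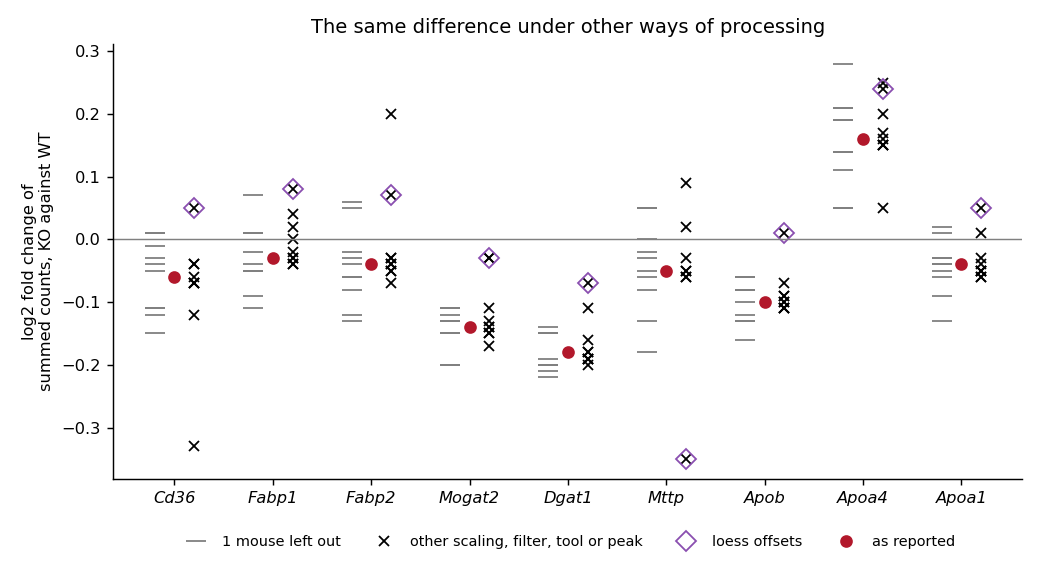
For each gene the vertical axis gives the log2 fold change of summed counts, KO against WT, as reported (circle), with 1 mouse left out (bars) and under other ways of processing (crosses, with loess offsets in diamonds). Dgat1 and Mogat2 stay below 0 and Apoa4 above 0, while marks of the other 6 genes lie on both sides of 0.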

How the data were processed

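IECs of 5 WT and 5 KO mice were sequenced by ATAC-seq with paired-end reads. The authors deposited raw counts per peak for a peak set common to all mice (246501 entries, 22 without values), with an Ensembl gene ID for each peak except 594, which held 0.78% of counts. The authors also deposited a normalised read count, a signal equal to the raw count divided by 1 factor per mouse, which was not tested here; the same table was deposited in duplicate. The genome build is mm10 per the labels. The aligner, peak caller, whether duplicates were removed or cut sites shifted, and the rule assigning peaks to genes are not given in the sources used here; these set which reads were counted and which peaks a gene's sum holds.

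The raw counts, per peak and summed per gene ID, were filtered by filterByExpr, scaled by TMM and tested with edgeR 4.0.16 (glmQLFit, glmQLFTest; R 4.3.3) in a model of genotype alone, with p-values adjusted by Benjamini-Hochberg over all features; the study's methods name Student's test for genotypes in general and no model for peaks. A gene ID with no peak past the filter could still pass as a sum. Single values were compared by exact two-sided permutation over 252 labelings (smallest p 0.00794), on log2 CPM (prior count 2, none for the Apoa1 to Apoa4 locus) or on shares. The fit was checked on simulated counts. Tables used Python 3.11.15, pandas 2.3.3 and scipy 1.17.1. Alternatives were DESeq2 1.42.0, total counts, loess offsets (span 0.3), leaving out the peak of highest count, no filter, at least 10 counts in every mouse, 1 surrogate variable (sva 3.50.0), thinning to the smallest library, the strongest peak per gene, a prior count of 0.5 and leaving out each mouse; those for the share of Cd36 peak 13 were chosen after seeing the data.

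The genes and lists were chosen with earlier results of these data known. Named were the 9 genes and their tested peaks and, from the list of 51 other fat absorption genes, any past the threshold. The sources used here paired only Mogat1 with an ID, through the study's list of transcripts called different in RNA, and 0 of 47 marker genes. These lists and a search for genes of like pattern were therefore void. Peaks were put in order by assuming that the entries are a text sort of running numbers; in that order 35859 of 35864 gene IDs with several peaks formed an unbroken run. No 2 libraries of a group agreed within sampling noise (chi-square per degree of freedom at least 1.86). The labels number the libraries within a group, and that each is a separate mouse is taken from the study's methods.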

Additional observations from a re-analysis of the deposited data

Results flagged for a closer look

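Of 112 groups of 5 mice examined (56 measures, the 9 genes and their 47 tested peaks, in WT and in KO mice), 8 held a mouse that stood apart from the other 4 by Dixon's criterion, which chance gives in about 1 in 20 groups. No summed gene was among them, and all values are log2 CPM. WT1 was low at Apob peak 17 (3.22, others 3.93 to 4.19) and at Apob peak 23 (1.05, others 1.95 to 2.21), and high at Cd36 peak 5 (2.34, others 1.59 to 1.70). WT2 was low at Apob peak 10 (0.55, others 1.55 to 1.94). Among KO mice, KO9 was low at Apob peak 2 (1.64, others 2.18 to 2.35), KO6 at Fabp2 peak 5 (3.0, others 3.64 to 3.75) and KO8 at Cd36 peak 17 (-0.10, others 1.37 to 1.61), and KO10 was high at Fabp1 peak 5 (2.95, others 2.38 to 2.50). Without KO8 the log2 fold change of Cd36 peak 17 was 1.14 (adjusted p = 0.118), against 0.90 with it.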

How the results depend on the processing

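The count of gene IDs past an adjusted p of 0.05, 1434, was 897 with total counts, 298 with loess offsets, 25 with 1 surrogate variable, 139 with thinned libraries, 2188 with DESeq2 and 0 in edgeR with the strongest peak per gene (5756 at an unadjusted p under 0.05). With 1 mouse left out it ran from 0 (WT3, WT5, KO6, KO9, KO10 each left out; 7147 to 8651 at an unadjusted p under 0.05) to 3326 (without WT2), and was 342 without WT4, 867 without KO8 and 2251 without KO7. The count of peaks, 0 (12981 at an unadjusted p under 0.05), was 394 without a filter, 833 with at least 10 counts in every mouse, 6 with 1 surrogate variable and 552 with DESeq2, and from 0 to 1895 with 1 mouse left out (78 without WT1, 1895 without WT2, 61 without KO7). The count of genes with peaks that differ by genotype, 212, ran from 39 to 663 with 1 mouse left out (360 without WT1, 663 without WT2, 85 without WT4, 39 without WT5, 91 without KO6, 47 without KO9, 53 without KO10). In each of these the lipid absorption genes and their peaks called numbered 0, and the cause of the moves was not tested. The exact test of Dgat1 gave p = 0.0556 with total counts, so that 0 of 9 genes had an exact p under 0.05 there, against 20.3% of all gene IDs.

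Signs that reversed were, under loess offsets, those of Apoa1 (0.05), Apob (0.01), Fabp1 (0.08), Fabp2 (0.07) and Cd36 (0.05). With the strongest peak they were Apoa1 (0.01), Fabp1 (0.04) and Fabp2 (0.20), with 1 surrogate variable Mttp (0.09) and Fabp1 (0.02), and with thinned libraries Mttp (0.02). With 1 mouse left out the log2 fold change ran from -0.13 to 0.02 for Apoa1, from -0.18 to 0.05 for Mttp, from -0.11 to 0.07 for Fabp1, from -0.13 to 0.06 for Fabp2 and from -0.15 to 0.01 for Cd36, and the median over the 9 genes from -0.116 to 0.003; the adjusted p of all of these stayed above 0.05. Mogat1 ran from -0.26 to -0.05 with 1 mouse left out, and was -0.40 with 1 surrogate variable (unadjusted p = 0.0133, adjusted p = 0.152) and -0.02 with the strongest peak. The share of Cd36 peak 13 differed by -7.55 percentage points (KO minus WT), from -8.67 to -6.76 with 1 mouse left out and by -9.02 as a share of the tested Cd36 peaks alone, where the groups overlapped (exact permutation test, p = 0.0238).

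No paired analysis was possible because the labels number the WT mice 1 to 5 and the KO mice 6 to 10, so that no number is shared. Depth limits Mttp, Apoa1 peak 7, Cd36 peak 17 and Apob peak 9, each with under 30 counts in most mice.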
